A study of Mus musculus with 2 samples.

Results

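Ccr9, Ccr7, Cxcr4, S1pr1 and Selplg encode receptors with known parts in the traffic of lymphoid progenitors into, within and out of the thymus. They are 5 of the 27998 genes in the deposited matrix and were set by name, with earlier results of these data known. They were measured by droplet RNA sequencing of the 3′ ends of transcripts in thymus cells of C57BL/6 mice with the genotype Bcl11byfp/yfp, in which both copies of Bcl11b carry a fluorescent reporter. All cells were 7AAD- (alive), negative for markers of other lineages (Lin-) and Kit+. A total of 4 gated sorts were also CD25- and Bcl11b-, the surface and reporter profile of early T-lineage progenitors. These were Flt3+ Ly6d- HSA- (1412 cells), Flt3+ HSA+ (1182 cells, not gated on Ly6d), Flt3- Ly6d- HSA- (1205 cells) and Flt3- Ly6d+ (847 cells, not gated on HSA, which is the protein of Cd24a). The fifth sort, the control, had no gate beyond Lin-, 7AAD- and Kit+ (3302 cells) and so also held the CD25+ and Bcl11b+ cells that the other sorts left out. Each sort carried its own hashtag antibody, and the 5 sorts were pooled in 1 cDNA library. The sources used here do not give the age, sex and number of mice.

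Progenitors reach the thymus from blood. P-selectin on thymic vessels binds PSGL-1, the product of Selplg, on rolling cells, and the chemokine receptors CCR9 (for CCL25) and CCR7 (for CCL19 and CCL21) act in entry. Inside the organ, CXCR4 and its ligand CXCL12 are known for positioning immature thymocytes in the cortex and for their growth at the beta-selection stage, while S1PR1, a receptor for sphingosine 1-phosphate, is known for the exit of mature T cells. Ccr9 is also known as a gene that thymocytes express again after commitment to the T lineage.

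Levels are given as the UMIs (unique molecular identifiers, one for each captured transcript) of a gene per 1000000 UMIs of a sort (CPM), with an exact Poisson 95% interval. The sorts held 10616041 to 57199129 UMIs, and the median cell held 9860 to 21152 UMIs. There was 1 sort per population, so no test between sorts was possible, and the intervals cover counting error only, not the spread between cells, mice or sorts. They treat each UMI as independent and are too narrow where UMIs gather in few cells. In the Flt3- Ly6d+ sort, for example, 10 cells held 69.0% of the 29 Ccr9 UMIs. RNA of the gated genes ran with the gates: Flt3 stood at 87.7 and 64.1 CPM in the 2 Flt3+ sorts against 23.8 and 14.2 CPM in the 2 Flt3- sorts, and Ly6d at 431 CPM in the Ly6d+ sort against 11.3 to 17.5 CPM in the other gated sorts. Cd24a stood at 142 CPM in the HSA+ sort against 80.4 and 96.2 CPM in the 2 HSA- sorts, and Il2ra and Bcl11b at 206 and 193 CPM in the control against at most 30.0 and 3.49 CPM in the gated sorts. Of the marker lists of other cell types, the 6 erythroid genes summed to 0.468 to 1.93 CPM per sort with 2 or 3 of them at 0, and the 5 thymic epithelial genes to 1.25 to 10.2 CPM with 3 or 4 at 0. The 8 B cell genes summed to 41.0 to 58.6 CPM and the 8 NK and innate lymphoid genes to 383 to 475 CPM. The 5 later thymocyte genes in the files summed to 7.15 to 14.2 CPM and the 2 of 7 gamma delta T cell genes in the files to 6.99 to 12.3 CPM. The 8 dendritic genes summed to 109.6 CPM in the Flt3+ HSA+ sort and 113 CPM in the control against 35.9 to 55.4 CPM elsewhere. The 5 mast cell and basophil genes summed to 53.8 CPM in the Flt3- Ly6d- HSA- sort against at most 16.4 CPM elsewhere. A class of cells with at least 7 of 14 granulocyte markers made up 4.67%, 2.37%, 8.13%, 0% and 1.33% of the cells of the 5 sorts, in the order in which they are named above. Cells with 5 or more UMIs of 20 genes of the G2 and M phases among 3000 UMIs are called mitotic here, a class not limited to cells in M phase. Their share was 25.6%, 51.5%, 6.47%, 8.47% and 27.6% in the same order. Both classes are given beside the results they move with.

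In the mm10 genome (GENCODE M21), Ccr9 (ENSMUSG00000029530) lies on chromosome 9 at 123678439-123784330, plus strand. Its gene model overlaps Slc6a20a, Lztfl1 and 2 smaller models on the opposite strand, and Gm17200 (a lincRNA) and Gm17020 (a processed pseudogene) on the same strand. Reads of the latter cannot be told apart by strand, and the sources used here do not name the strand setting of the authors' counting. Ccr7 (ENSMUSG00000037944) lies on chromosome 11 at 99144196-99155077, Cxcr4 (ENSMUSG00000045382) on chromosome 1 at 128588199-128592293, S1pr1 (ENSMUSG00000045092) on chromosome 3 at 115710433-115715072 and Selplg (ENSMUSG00000048163) on chromosome 5 at 113818536-113832644. All 4 are on the minus strand and overlap no other gene model.

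The upstream regions of 2 members are shown, those of Ccr9, which differed most between the gated sorts, and of Cxcr4, which was higher in the control. Each is the 250 bases before the RefSeq transcript start in GRCm38.p6, printed 5′ to 3′ on the gene's own strand. These 2 of the 5 members had an entry in the RefSeq promoter table. The Ccr9 window lies inside the GENCODE gene model given above, which starts at 123678439, so the RefSeq start used here is a different one. Capitals mark E boxes (CANNTG, the same on both strands) in Ccr9 at chr9:123766961-123767210 (+), and GC boxes (GGGCGG, or CCGCCC on the other strand) in Cxcr4 at chr1:128592300-128592549 (-).
Ccr9: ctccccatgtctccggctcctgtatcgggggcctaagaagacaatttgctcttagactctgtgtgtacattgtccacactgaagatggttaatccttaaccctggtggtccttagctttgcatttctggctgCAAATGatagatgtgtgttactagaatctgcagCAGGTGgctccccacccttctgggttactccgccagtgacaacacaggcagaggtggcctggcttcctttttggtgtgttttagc
Cxcr4: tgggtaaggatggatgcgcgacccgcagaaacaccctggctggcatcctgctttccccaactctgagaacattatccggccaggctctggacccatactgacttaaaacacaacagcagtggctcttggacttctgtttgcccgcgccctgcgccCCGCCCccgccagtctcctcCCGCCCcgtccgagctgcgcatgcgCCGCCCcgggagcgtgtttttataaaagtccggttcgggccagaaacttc
The Ccr9 window held 2 E boxes, with first bases 118 and 85 bases before the start, and 0 GC boxes. The Cxcr4 window held 3 GC boxes, at 95, 75 and 50 bases before the start, and 0 E boxes. Across 32851 windows of this length in the table, 66.2% held an E box and 32.7% a GC box, so these matches describe the letters and show no binding.

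Ccr9 was the member with the widest range among the sorts. Its level was 35.9 CPM (33.6 to 38.4) in the Flt3+ Ly6d- HSA- sort, 12.7 CPM (11.4 to 14.2) in the Flt3+ HSA+ sort, 4.71 CPM (3.64 to 5.99) in the Flt3- Ly6d- HSA- sort, 2.73 CPM (1.83 to 3.92) in the Flt3- Ly6d+ sort and 9.39 CPM (8.61 to 10.2) in the control. The highest and lowest sorts were 13.2-fold apart, both Flt3+ sorts stood above both Flt3- sorts, and the control lay between them. Neighbours in this order had intervals that did not overlap, except the 2 Flt3- sorts. With every cell thinned to 3000 UMIs, a Ccr9 UMI was found in 9.54% (8.05 to 11.2) of cells in the Flt3+ Ly6d- HSA- sort, 3.74% in the Flt3+ HSA+ sort, 1.98% in the Flt3- Ly6d- HSA- sort, 0.726% in the Flt3- Ly6d+ sort and 4.09% in the control (the interval is exact Clopper-Pearson 95%). The order of shares was thus the same except that the control and the Flt3+ HSA+ sort changed places. At full depth, 402 of the 1412 Flt3+ Ly6d- HSA- cells (28.5%) held a Ccr9 UMI, 209 held at least 2, and the highest cell held 13. The corresponding shares at full depth were 14.1%, 3.82%, 2.24% and 8.75% in the other sorts, in the order above.

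Free RNA in droplets can place a UMI in a cell that does not express the gene, and the granulocyte class served as the level in cells of another lineage. The 236 cells of that class held 3 Ccr9 UMIs, all in 1 cell, or 0.354 CPM (0.0730 to 1.04). None of the 236 held one after thinning, which allows a share of up to 1.27% (3 cells of the 236, the limit used here for a count of 0). The median depth was 34616 UMIs in the class and 14378 UMIs in all other cells. The CPM of Ccr9 in each of the 5 sorts lay above the interval of this class, but the thinned share in Flt3- Ly6d+ cells lay within what the class allows. Per cell, the class held 0.0127 Ccr9 UMIs and Flt3- Ly6d+ cells 0.0342, on 3 and 29 UMIs. Because depth differed, the CPM comparison does not settle whether Flt3- Ly6d+ cells stood above the background.

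Ccr7 showed the same order of the gated sorts at lower counts. It stood at 5.16 CPM (4.30 to 6.14) in the Flt3+ Ly6d- HSA- sort, 4.02 CPM (3.28 to 4.88) in the Flt3+ HSA+ sort, 1.85 CPM (1.21 to 2.72) in the Flt3- Ly6d- HSA- sort, 1.04 CPM (0.517 to 1.85) in the Flt3- Ly6d+ sort and 2.36 CPM (1.98 to 2.79) in the control. These values rest on 127, 103, 26, 11 and 135 UMIs. The intervals of the 2 Flt3+ sorts overlapped each other and lay above those of both Flt3- sorts, and the whole range was 4.98-fold. Ccr7 was seen in 1.85% or fewer of thinned cells in every sort, and the granulocyte class held 2 UMIs of it, or 0.236 CPM (0.0286 to 0.853). The interval of the Flt3- Ly6d+ sort overlapped that of the class, so it is not settled whether those cells stood above the background in Ccr7.

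Over all cells, Cxcr4 lay between 19.3 and 22.7 CPM in the gated sorts and was higher in the control. Its level was 22.7 CPM (20.8 to 24.6) in the Flt3+ Ly6d- HSA- sort, 22.7 CPM (20.9 to 24.6) in the Flt3+ HSA+ sort, 19.3 CPM (17.03 to 21.7) in the Flt3- Ly6d- HSA- sort, 20.4 CPM (17.8 to 23.3) in the Flt3- Ly6d+ sort and 34.1 CPM (32.6 to 35.6) in the control. The intervals of the 4 gated sorts overlapped between neighbours in this order, while that of the control stood above them all. Thinned shares ran from 4.74% to 7.06% in the gated sorts and reached 8.83% in the control. Unlike Ccr9 and Ccr7, Cxcr4 was abundant in the granulocyte class, at 36.2 CPM (32.3 to 40.5) against 26.5 CPM in all other cells. In the Flt3- Ly6d- HSA- sort, where that class took 20.0% of the UMIs, Cxcr4 stood at 38.9 CPM in the class and 14.4 CPM in the rest, a 2.71-fold difference (2.11 to 3.48). The class was also higher in the Flt3+ Ly6d- HSA- sort (2.13-fold, 1.71 to 2.63) and the Flt3+ HSA+ sort (1.47-fold, 1.06 to 1.99). In the control the class was lower, at 24.9 CPM against 34.4 CPM in the rest, a ratio of 0.724 (0.525 to 0.976). Without the class, the other gated sorts stood at 20.3 CPM (Flt3+ Ly6d- HSA-), 22.2 CPM (Flt3+ HSA+) and 20.4 CPM (Flt3- Ly6d+). The Flt3- Ly6d- HSA- sort was the lowest with and without the class, and stood further below the other gated sorts without it.

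S1pr1, the egress receptor, was close to the limit of detection. It had 25, 22, 22, 8 and 34 UMIs in the 5 sorts, or 1.02, 0.859, 1.57, 0.754 and 0.594 CPM, and no neighbours in the order of levels had intervals apart. Those of the highest and lowest sorts were apart, at 0.984 to 2.38 CPM in Flt3- Ly6d- HSA- cells and 0.412 to 0.831 CPM in the control. The thinned shares of S1pr1 were 0.484% or less, and the granulocyte class held 0 UMIs, which allows up to 0.354 CPM (3 counts, where the exact Poisson upper limit is 0.435 CPM). The depth does not show whether the gated sorts differ in S1pr1.

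Selplg, which encodes the selectin ligand PSGL-1, was found in every sort at nearly one level. It stood at 224 CPM (218 to 230) in the Flt3+ Ly6d- HSA- sort, 202 CPM (196 to 207) in the Flt3+ HSA+ sort, 213 CPM (205 to 221) in the Flt3- Ly6d- HSA- sort, 200.1 CPM (192 to 209) in the Flt3- Ly6d+ sort and 195 CPM (191 to 199) in the control. The range was 1.15-fold. A Selplg UMI was found in 44.3% to 49.9% of thinned cells and in 85.0% to 95.9% of cells at full depth. The granulocyte class held it too, at 164 CPM and in 37.3% of thinned cells, so it gives no background level for this gene.

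**Figure D1:**
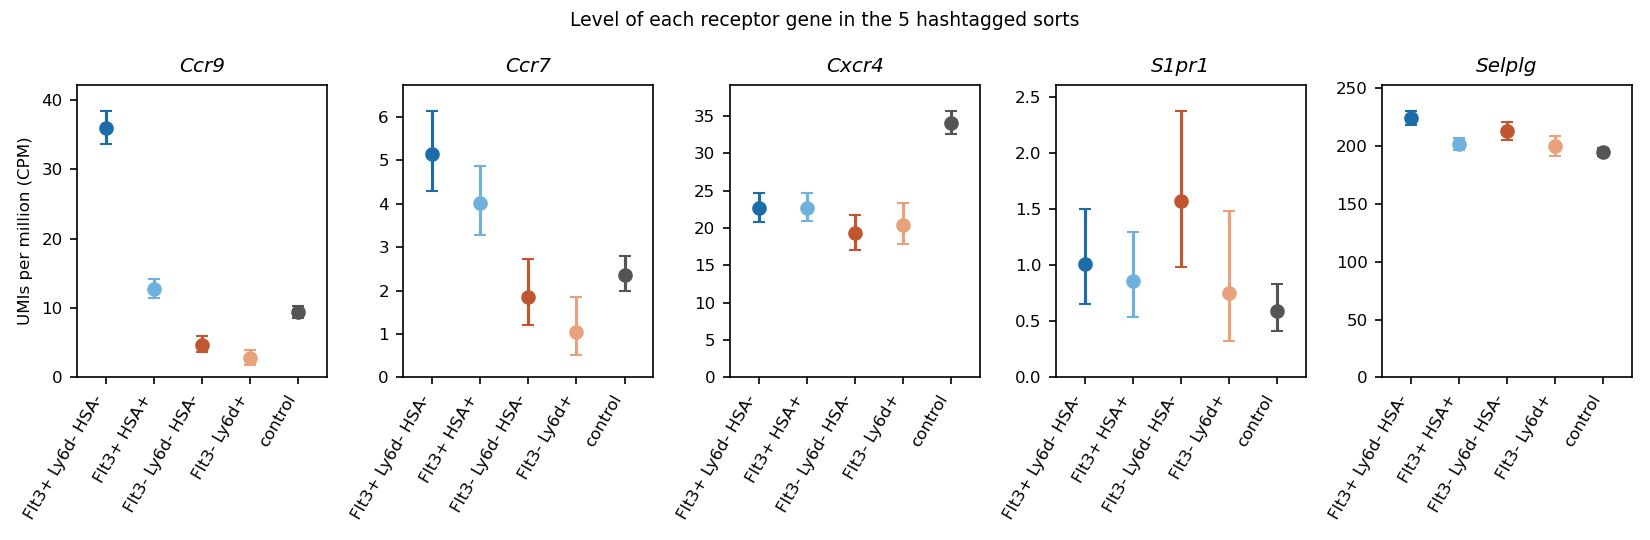
Level of the 5 receptor genes (CPM, linear axis from 0) in the 5 sorts, with points for the summed UMIs of a sort and bars for exact Poisson 95% intervals. Ccr9 runs from 35.9 CPM in Flt3+ Ly6d- HSA- cells down to 2.73 CPM in Flt3- Ly6d+ cells, Cxcr4 is highest in the control at 34.1 CPM, and Selplg stays between 195 and 224 CPM.

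With Ly6d and HSA both negative, cells without Flt3 were compared with cells that carry it. Ccr9 was 7.63-fold lower in the Flt3- cells (5.94 to 9.96, from the binomial split of the counts) and Ccr7 was 2.78-fold lower (1.81 to 4.42). Cxcr4 had a ratio of 0.850 (0.732 to 0.985), Selplg of 0.949 (0.907 to 0.992) and S1pr1 of 1.55 (0.831 to 2.86). Counting members at least 2-fold apart, 2 of the 5 were lower and 0 higher. Of the 4 members with at least 5 CPM in either sort, 2 were lower, beside 2.18% of the 9210 genes with that level that were at least 2-fold lower and 1.19% that were at least 2-fold higher. Without the granulocyte class, Ccr9 was 6.78-fold lower (5.28 to 8.85) and Cxcr4 moved to a ratio of 0.706 (0.586 to 0.848). Among cells that were not mitotic, Ccr9 was 8.85-fold lower and the ratio of Cxcr4 was 1.003 (0.840 to 1.20), so the small difference in Cxcr4 changed with which cells were counted. The mast cell and basophil list was higher in the Flt3- sort, and its part was not tested.

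The second comparison, Flt3+ HSA+ over Flt3+ Ly6d- HSA- cells, shares its denominator sort with the first. Ccr9 was 2.82-fold lower in the HSA+ cells (2.48 to 3.22). Ccr7 had a ratio of 0.780 (0.595 to 1.02), Cxcr4 of 1.003 (0.891 to 1.13), S1pr1 of 0.846 (0.455 to 1.56) and Selplg of 0.900 (0.866 to 0.935). Of the 5 members, 1 was at least 2-fold lower and 0 higher. That was also 1 of the 4 members with at least 5 CPM, beside 0.165% of 9066 genes lower and 0.331% higher. The HSA+ sort was richer in mitotic cells, and Ccr9 differed less between the sorts outside the mitotic class: it was 2.04-fold lower (1.74 to 2.39) among cells that were not mitotic and 2.86-fold lower (2.25 to 3.64) among mitotic cells. The dendritic list was higher in the HSA+ sort as well. Without the granulocyte class and cells with at least 2 markers of a B cell, dendritic, NK or erythroid list, Ccr9 was 2.90-fold lower.

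The third comparison, Flt3- Ly6d+ over Flt3- Ly6d- HSA- cells, concerned sorts in which both Ccr9 and Ccr7 were already low. The ratio was 0.580 (0.361 to 0.911) for Ccr9, 0.559 (0.249 to 1.17) for Ccr7, 1.06 (0.883 to 1.27) for Cxcr4, 0.940 (0.889 to 0.994) for Selplg and 0.480 (0.185 to 1.12) for S1pr1. S1pr1 was the 1 member of 5 past 2-fold, on 8 against 22 UMIs and with an interval that includes no difference. With thinned cells its ratio was 1.12, and Ccr9 was then the member past 2-fold. Only Cxcr4 and Selplg of the members reached 5 CPM in either sort, and 0 of these 2 were 2-fold apart, beside 1.04% of 9178 genes lower and 0.36% higher. The Ly6d+ sort held 0 cells of the granulocyte class, and without that class in the other sort Cxcr4 stood 1.42-fold higher (1.16 to 1.76) in Ly6d+ cells, with Ccr9 2.15-fold lower (1.37 to 3.46). Ccr7 then had a ratio of 0.447 (0.199 to 0.936) and S1pr1 of 0.384 (0.148 to 0.896). Both stood under 5 CPM in each sort, and the share of all genes past 2-fold was not computed without that class. The mast cell and basophil list was also lower in the Ly6d+ sort, and its part was not tested.

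The fourth comparison, Flt3- Ly6d+ over Flt3+ HSA+ cells, crossed the Flt3 gate again. Ccr9 was 4.66-fold lower (3.18 to 7.07) and Ccr7 3.88-fold lower (2.08 to 8.01) in the Flt3- Ly6d+ cells. For neither gene was it settled whether those cells stood above the background, and their Ccr7 level rests on 11 UMIs. Cxcr4 had a ratio of 0.900 (0.766 to 1.05), S1pr1 of 0.878 (0.338 to 2.05) and Selplg of 0.991 (0.942 to 1.04). Of the 5 members, 2 were at least 2-fold lower and 0 higher. Of the 3 with at least 5 CPM, 1 was lower, beside 3.54% of 9236 genes lower and 2.23% higher. Among cells that were not mitotic Ccr9 was 8.40-fold lower (5.49 to 13.4). Among mitotic cells, of which Flt3- Ly6d+ had 70, the ratio was 0.513 (0.163 to 1.23).

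The control was compared with the unweighted mean of the 4 gated sorts. Cxcr4 was 1.60-fold higher (1.497 to 1.72, log-normal approximation), Ccr9 had a ratio of 0.669 (0.605 to 0.741), Ccr7 of 0.782 (0.634 to 0.965), S1pr1 of 0.567 (0.375 to 0.855) and Selplg of 0.929 (0.906 to 0.952). None of the 5 members, and none of the 3 with at least 5 CPM, was 2-fold apart, beside 1.13% of 9206 genes lower and 1.39% higher. The ratio of Ccr9 depended on how cells were weighted, since it was 0.959 with equal weight for each cell and 1.04 with every cell thinned to 3000 UMIs, where the control stood at 17.1 CPM. Control cells with few UMIs held much of the control's Ccr9, as described below.

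**Figure D2:**
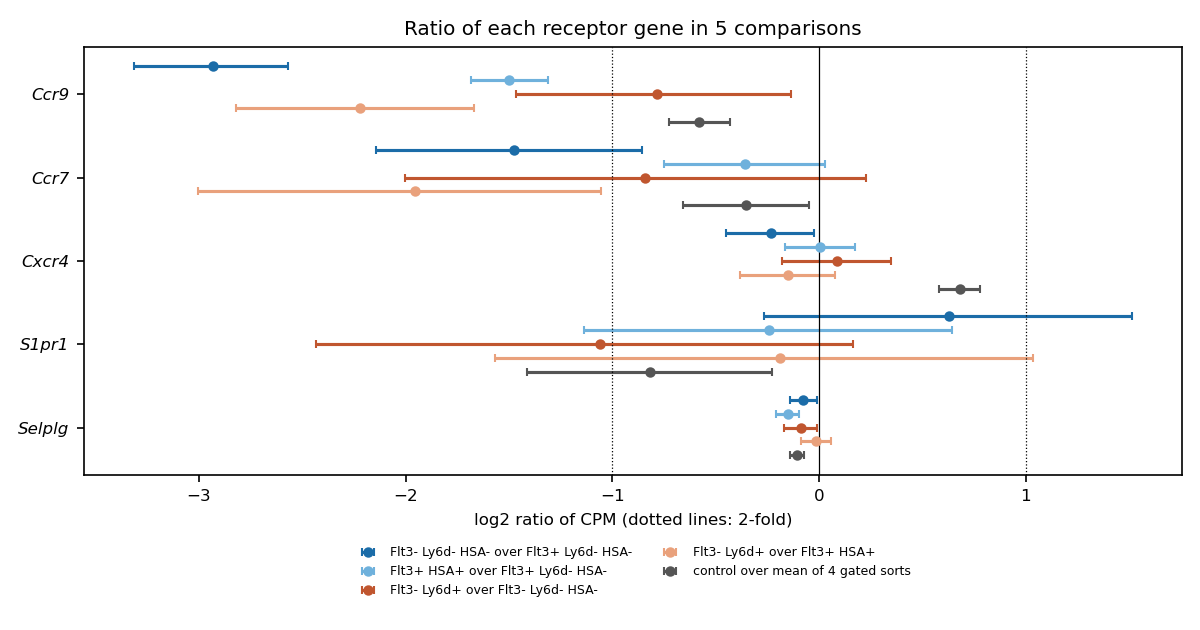
Log2 ratio of CPM of each receptor gene in the 5 comparisons, with bars for 95% intervals that cover counting error only and dotted lines at 2-fold. Ccr9 lies left of the first dotted line in 3 comparisons and Ccr7 in 2, while Cxcr4 and Selplg lie within 2-fold in each.

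Within sorts, the members were described together in single cells thinned to 3000 UMIs. In Flt3+ Ly6d- HSA- cells 43.8% held none of the 5, 47.3% held 1, 8.33% held 2 and 0.569% held 3. The share with 2 was 5.61% in the Flt3+ HSA+ sort, 4.22% in the Flt3- Ly6d- HSA- sort, 2.42% in the Flt3- Ly6d+ sort and 6.31% in the control. Of the 60 ordered pairs of members and sorts with at least 20 cells holding the second gene, 1 had intervals apart: in the control, Selplg was found in 55.6% of cells with a Ccr9 UMI (46.8 to 64.2) and 44.1% of those without (42.4 to 45.9). Read the other way, the intervals overlapped: Ccr9 was found in 5.11% of cells with a Selplg UMI (4.03 to 6.37) and 3.28% of those without (2.50 to 4.21). Of the 140 such pairs of a member with a gate gene or Tcf7, a T-lineage regulator, 7 had intervals apart. The share among pairs of other genes was not computed, so neither count can be set against a background. In Flt3+ Ly6d- HSA- cells, Ccr9 was found in 14.2% of cells with a Flt3 UMI (10.8 to 18.3) and 7.97% of those without (6.41 to 9.77). The same pair gave 4.19% against 3.64% in the Flt3+ HSA+ sort and 6.16% against 3.99% in the control, with overlapping intervals. In the control, Ccr9 was found in 6.92% of cells with a Ly6d UMI and 2.21% of those without, and in 1.69% of cells with a Kit UMI and 4.76% of those without. Cxcr4 ran the other way with Flt3 there, at 2.74% of cells with a Flt3 UMI and 9.12% of those without. Also apart in the control were Ccr9 with and without Tcf7 (5.43% and 3.03%) and Cxcr4 with and without Kit (6.35% and 9.52%). The last pair was S1pr1 with Il2ra in the Flt3- Ly6d+ sort, in 3 of 76 cells with an Il2ra UMI and 1 of 750 without. All such cells share 1 library, and the detection of both genes depends on its depth.

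The control spans the steps from uncommitted to committed cells, so its cells were grouped by RNA of Il2ra (CD25), Bcl11b (a commitment factor) and Cd3g (part of the T-cell receptor complex). The groups were cells with no Il2ra or Bcl11b UMI (1112), with Il2ra but no Bcl11b (766), with Bcl11b but no Cd3g (835) and with Bcl11b and Cd3g (589). Ccr9 stood at 12.9 CPM (11.3 to 14.6) in the first group, 0.766 CPM (0.367 to 1.41) in the second, 1.89 CPM (1.28 to 2.68) in the third and 27.3 CPM (24.1 to 30.8) in the fourth. It was thus high, low, low and high, 16.8-fold lower in the second group than in the first and 14.5-fold higher (9.96 to 21.8) in the fourth than in the third. The second group lay within the interval of the granulocyte class. Thinned shares gave the same picture, at 3.51%, 0.395%, 0.605% and 15.0%. With the groups set from only the 3000 UMIs kept per cell, which leaves more cells in the first group, the levels were 8.92, 1.69, 3.45 and 48.6 CPM.

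Cxcr4 had a different course, at 22.4 CPM (20.3 to 24.7), 32.1 CPM (29.1 to 35.3), 41.8 CPM (38.7 to 45.1) and 45.6 CPM (41.5 to 50.1). It was higher at each of the first 2 steps beyond the intervals, and the fourth group was 2.04-fold above the first (1.78 to 2.34). With the groups set from the 3000 UMIs, Cxcr4 stood at 28.5 CPM (26.6 to 30.5), 35.8 CPM (32.5 to 39.4), 41.3 CPM (37.6 to 45.2) and 49.3 CPM (42.8 to 56.5). The intervals then overlapped at each step but the first, and the fourth group was 1.73-fold above the first (1.48 to 2.02). Selplg stood at 203, 162, 183 and 245 CPM, lowest in the second group and 1.34-fold higher (1.27 to 1.41) in the fourth group than in the third. Ccr7 stood at 3.54, 1.69, 0.913 and 3.53 CPM on 64, 22, 15 and 34 UMIs. In the fourth group, 21 of the 34 Ccr7 UMIs lay in 8 of the 61 cells without an Il2ra UMI, and the other 528 cells stood at 1.45 CPM (0.771 to 2.48). S1pr1 had 17, 4, 5 and 8 UMIs, too few to order the groups.

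**Figure D3:**
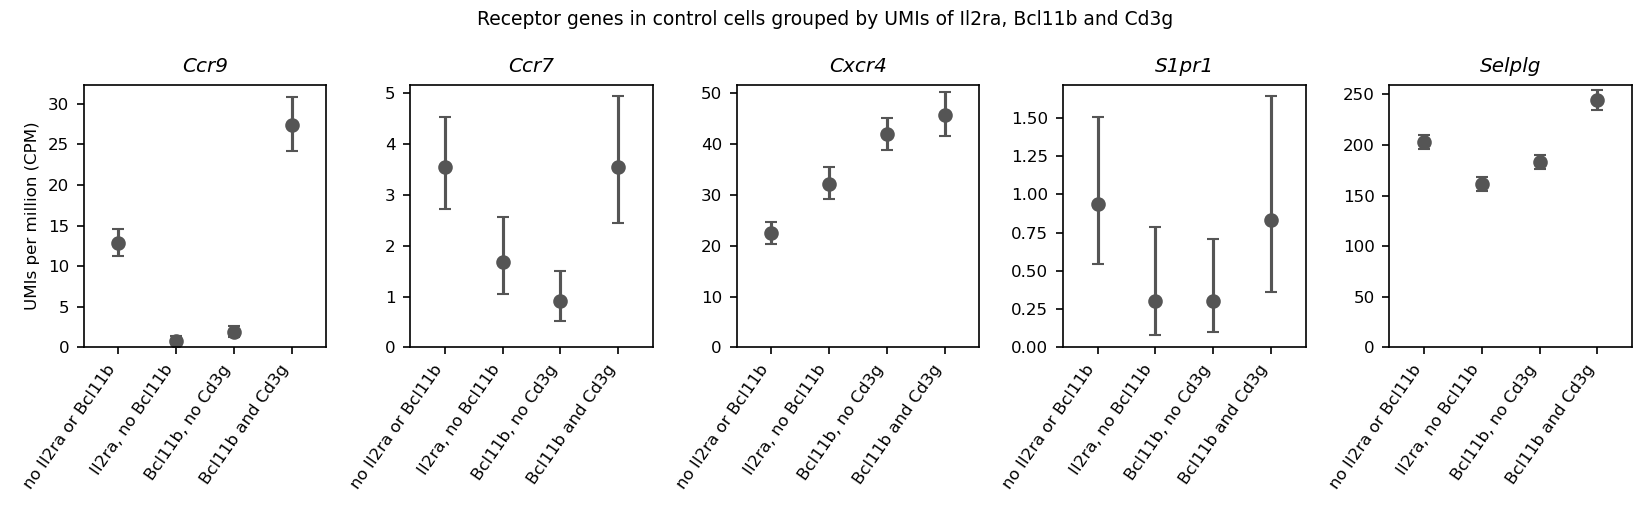
Levels of the 5 receptor genes (CPM, linear axes from 0) in control cells grouped by UMIs of Il2ra, Bcl11b and Cd3g, with exact Poisson 95% intervals. Ccr9 is at 12.9 CPM in the first group, 0.766 and 1.89 CPM in the middle groups and 27.3 CPM in the last, while Cxcr4 goes from 22.4 to 45.6 CPM.

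Ccr9 in the fourth group was highest in cells with RNA of Ptcra, the pre-T-cell receptor alpha chain, a split chosen after the values were seen. The 206 cells of that group with a Ptcra UMI held 71.1% of its Ccr9 UMIs, at 101.3 CPM (87.3 to 117) against 9.78 CPM (7.70 to 12.2) in the other 383, a 10.4-fold difference (7.90 to 13.7). Over the whole control, the 227 cells with a Ptcra UMI were 6.87% of the control and held 36.3% of its Ccr9 UMIs, at 86.0 CPM (74.4 to 99.0) against 6.23 CPM (5.58 to 6.92) in the 3075 other control cells, a 13.8-fold difference (11.5 to 16.5). A Ccr9 UMI was found in 31.2% of them after thinning and 2.11% of the others. They also held Rag1, a gene of receptor rearrangement, at 195.8 CPM against 2.37 CPM. They had a median of 6492 UMIs per cell against 16650 UMIs in the others, and 14.03% were mitotic against 28.6%. In the 227 cells, Cxcr4 stood at 43.7 CPM against 33.7 CPM, Selplg at 249 CPM against 193 CPM, Ccr7 at 0.882 CPM on 2 UMIs, and S1pr1 had 0 UMIs.

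Ccr9 and Cxcr4 also differed with the cell cycle, in opposite directions. In Flt3+ Ly6d- HSA- cells Ccr9 stood at 20.6 CPM (17.7 to 23.9) in mitotic cells and 44.5 CPM (41.2 to 47.9) in the others. In Flt3+ HSA+ cells it stood at 7.21 CPM against 21.8 CPM and in the control at 6.32 CPM against 11.3 CPM, so it was 2.16-fold, 3.03-fold and 1.78-fold lower in mitotic cells of these 3 sorts. The mitotic cells of the 2 Flt3- sorts held 3 and 5 Ccr9 UMIs, too few to compare. Cxcr4 stood at 30.2 CPM in mitotic against 18.5 CPM in other Flt3+ Ly6d- HSA- cells, 25.9 against 17.5 CPM in Flt3+ HSA+ cells and 40.2 against 29.9 CPM in the control. That is 1.63-fold (1.38 to 1.93), 1.48-fold (1.24 to 1.78) and 1.35-fold (1.23 to 1.47) higher, and in the Flt3- sorts the ratios were 1.30 and 1.28 with intervals that include 1. Selplg differed by at most 1.21-fold in the same contrasts. Mitotic cells were deeper, with a median of 23303 UMIs against 13798 UMIs in Flt3+ Ly6d- HSA- cells.

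**Figure D4:**
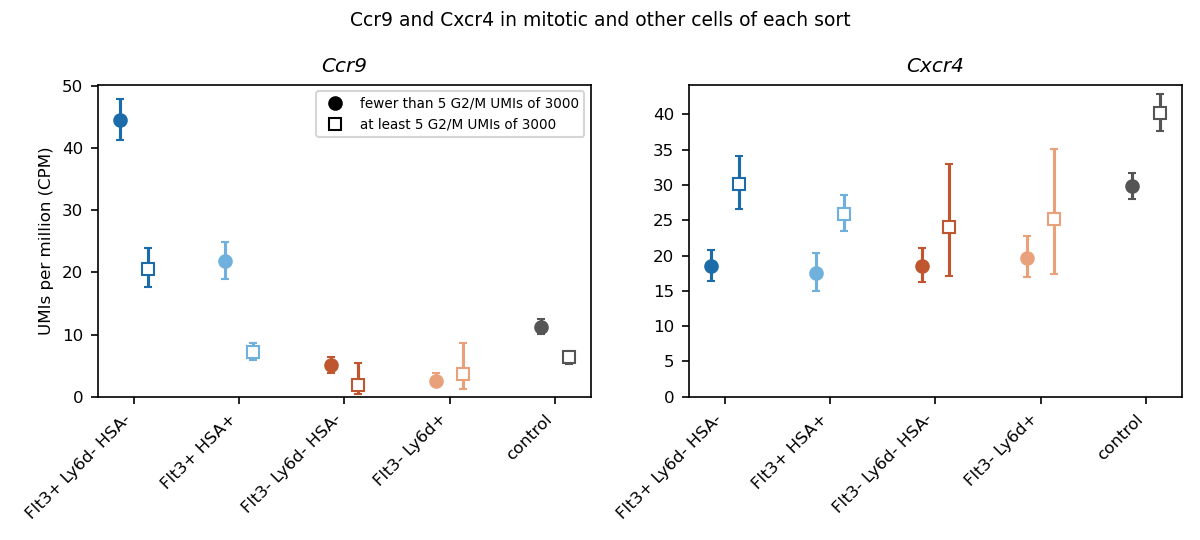
Ccr9 and Cxcr4 (CPM, linear axes from 0) in mitotic cells (open squares, 5 or more UMIs of 20 genes of the G2 and M phases among 3000) and other cells (filled circles) of each sort, with exact Poisson 95% intervals. Ccr9 is lower and Cxcr4 higher in mitotic cells of Flt3+ Ly6d- HSA-, Flt3+ HSA+ and the control, with intervals that do not overlap.

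Ccr9 also differed with the depth of the cell. Cells of each sort were divided by their UMIs into 4 bins of near equal cell number. In Flt3+ Ly6d- HSA- cells, from the bin with the fewest to that with the most UMIs, Ccr9 stood at 79.8, 62.0, 30.5 and 13.6 CPM. It stood at 25.8, 22.8, 9.34 and 5.23 CPM in Flt3+ HSA+ cells, at 10.5, 8.36, 6.43 and 0.640 CPM in Flt3- Ly6d- HSA- cells and at 40.4, 10.4, 4.55 and 4.31 CPM in the control. In Flt3- Ly6d+ cells it stood at 2.02, 8.35 and 2.91 CPM and had 0 UMIs, which allows up to 0.709 CPM, in the deepest bin, with no steady course. Ccr9 was lowest in the deepest bin of each sort. Cxcr4 stood at 11.5, 16.1, 22.1 and 29.5 CPM in the bins of Flt3+ Ly6d- HSA- cells and at 16.1, 19.6, 25.003 and 25.1 CPM in those of Flt3+ HSA+ cells, the reverse order. In the other sorts its course was not steady: it stood at 12.8, 13.7, 13.2 and 26.7 CPM in Flt3- Ly6d- HSA- cells, at 20.2, 18.1, 16.7 and 24.1 CPM in Flt3- Ly6d+ cells and at 29.8, 25.4, 36.1 and 37.8 CPM in the control, with the highest level in the deepest bin of each. The proliferation gene Mki67 stood at 42.6, 34.6, 93.6 and 278 CPM in the bins of Flt3+ Ly6d- HSA- cells and Ptcra at 99.9, 5.97, 3.602 and 1.64 CPM in those of the control. In the Flt3- Ly6d- HSA- sort, the 98 cells of the granulocyte class had a median of 29446 UMIs. They held Cxcr4 at 38.9 CPM and 0 Ccr9 UMIs. The part of cell size, cycle and cell type, including that class, in these courses was not tested. The 216 control cells with fewer than 6000 UMIs held 23.3% of the control's Ccr9 UMIs, at 143 CPM (119 to 170.2), and without them the control had a Ccr9 level of 7.31 CPM.

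**Figure D5:**
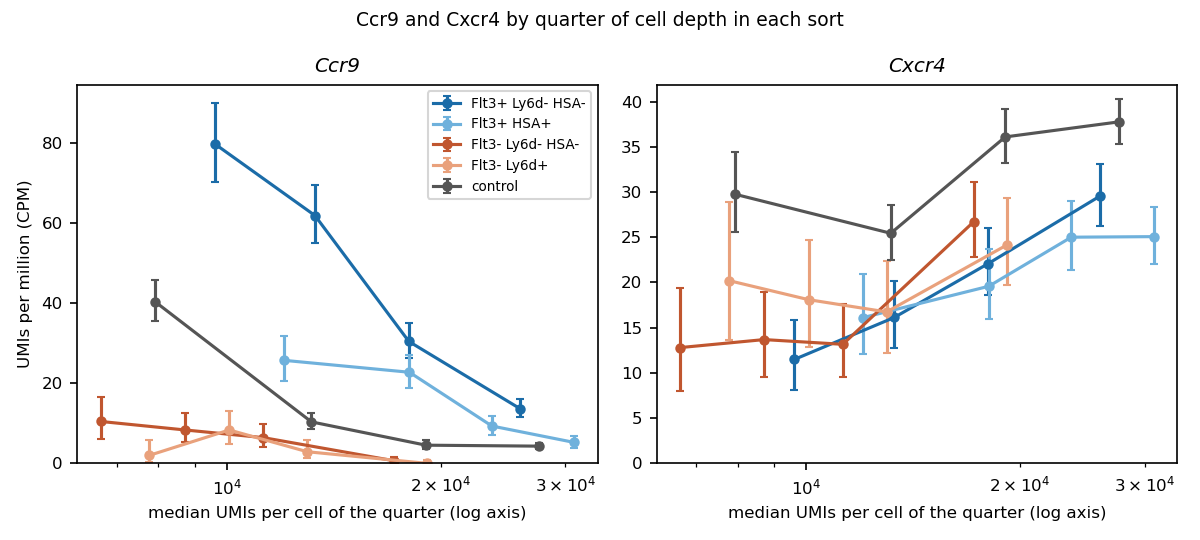
Ccr9 and Cxcr4 (CPM, linear axes from 0) in 4 bins of the cells of each sort by total UMIs, against the median UMIs per cell of the bin (log axis), with exact Poisson 95% intervals. In Flt3+ Ly6d- HSA- cells Ccr9 goes from 79.8 to 13.6 CPM from the shallowest to the deepest bin, and Cxcr4 from 11.5 to 29.5 CPM.

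The genes around these receptors were read from 5 lists. Over all genes with at least 5 CPM in either sort, 0.165% to 3.54% were 2-fold apart in a given direction, depending on the comparison. A count of 0 in lists this short lies near that share and is no result about the list. Among 20 other chemokine receptors, 2 or 3 had at least 5 CPM in each comparison, and Ccr2, a receptor of monocytes and of some early progenitors, was the one that was 2-fold apart. Its levels were 11.9, 6.99, 18.1 and 5.37 CPM in the gated sorts, in the order of the opening, and 3.36 CPM in the control. Ccr2 was 3.37-fold lower (2.52 to 4.58) in Flt3- Ly6d+ than in Flt3- Ly6d- HSA- cells and 3.16-fold lower (2.69 to 3.71) in the control than in the mean of the gated sorts. Cells of the granulocyte class were 8.13%, 0% and 1.33% of the Flt3- Ly6d- HSA-, Flt3- Ly6d+ and control sorts, and their part in the Ccr2 values was not tested. Of 16 genes of sphingosine 1-phosphate signalling and of S1pr1 control, 11 could be compared and 0 were 2-fold apart in any comparison. These include S1pr4, another receptor of the family, at 33.1 to 46.8 CPM, Klf2, an activator of S1pr1, at 21.8 to 48.3 CPM, and Cd69, whose product removes S1PR1 from the surface, at 84.7 to 140.5 CPM. Spns2 of this list fell just short of 2-fold, at 72.7 CPM in Flt3- Ly6d- HSA- against 36.4 CPM in Flt3+ Ly6d- HSA- cells. It stood at 71.4 CPM in Flt3- Ly6d+ against 44.0 CPM in Flt3+ HSA+ cells. Its gene model overlaps Mybbp1a on the opposite strand. Of 13 enzymes that modify PSGL-1 for selectin binding, 7 to 9 could be compared and 0 were 2-fold apart, with Fut7, a fucosyltransferase, at 26.6 to 38.0 CPM. Of 31 genes of receptor signalling and its brakes, 26 could be compared, and Rgs1, which dampens chemokine receptor signals, was the one 2-fold apart, at 136 CPM in the control against a mean of 299.8 CPM in the gated sorts (2.20-fold lower). In that comparison, 1.13% of all genes with at least 5 CPM were at least 2-fold lower. The median log2 ratio of each list lay between -1.19 and 0.54, on 2 or 3 genes at both ends, against -0.0044 to 0.044 over all genes compared. Of 8 ligands of the members, 1 reached 5 CPM: Ccl25, at 16.7 to 20.9 CPM, whose gene model overlaps Elavl1 on the opposite strand. Cxcl12, Ccl19, Ccl21a, Ccl21b and Ccl21c stood at 0.214 CPM or less.

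Over the 5 sorts, the genes of most similar course were sought among 6016 genes with at least 20 CPM in 1 sort, by the largest absolute difference in centred log2(CPM + 1). For Ccr9 the nearest were Hopx, Hmga2 and Flt3, at 0.82, 0.83 and 0.83 log2 units, so none ran close to it. Flt3 set the gates. For Ccr7 they were Tmem109 (0.09), Gcat (0.23) and Ass1 (0.27), for Cxcr4 Ict1 (0.10), Cep164 (0.11) and Uck2 (0.11), for S1pr1 H2-DMb1 (0.08), Adam17 (0.11) and Hspa13 (0.13), and for Selplg Asnsd1 (0.02), Clta (0.03) and Golga7 (0.03). These are likenesses over 5 points that share a library. The added 1 narrows the course of genes at low CPM, as Ccr7 and S1pr1 are. S1pr1 ranged 2.64-fold over the sorts, while H2-DMb1 ran only from 15.5 to 24.0 CPM, so such small distances do not show a like course.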

How the data were processed

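Single thymus cells of 5 hashtagged sorts were read from 1 pooled Chromium 3′ v3 cDNA library and its hashtag library, which share their cell barcodes. Per the submitters' processing notes the reads were processed with Cell Ranger 3.0 and mm10. The deposited matrix holds counts, as whole UMIs per gene and barcode with no normalization. Each barcode's sort was taken from the authors' deposited cell table; the sources used here do not state its rule. In 100% of the 7948 assigned barcodes the hashtag with the highest count was that of the sort. The other 345 of 8293 barcodes entered no comparison. The sources used here do not say whether doublets were removed. None were called, and no cells were filtered.

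UMIs were summed per sort and scaled to CPM. Ratios carry 95% intervals for counting error, and no test was run. Genes with at least 5 CPM in either sort formed the background for 2-fold differences. Shares used cells thinned to 3000 UMIs (7, 6, 45, 21 and 52 shallower cells left out). Python 3.11.15, numpy 2.4.6, scipy 1.17.1 and pandas 2.3.3 were used, with edgeR and DESeq2 for alternative scaling factors. The scripts were tested on simulated data. The members and lists were chosen with earlier results of these data known. Named genes are the 5 members, genes of the lists at least 2-fold apart with at least 5 CPM, and the 3 genes most like each member; other genes named were chosen after their values were seen. Alternatives covered scaling, cell weighting and thinning, cell filters, the granulocyte class, markers of other cell types and mitotic cells.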

Additional observations from a re-analysis of the deposited data

Results flagged for a closer look

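The 345 barcodes that the authors assigned to no sort, which the comparisons leave out, held UMIs of the 5 members above the limit that a count of 0 allows. Their levels were 15.05 CPM for Ccr9, 3.34 CPM for Ccr7, 27.9 CPM for Cxcr4, 0.743 CPM for S1pr1 and 203 CPM for Selplg, each within the range of the 5 sorts. Their median depth was 29414 UMIs per barcode.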

How the results depend on the processing

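The direction of Ccr9 was the same in the 4 comparisons of gated sorts under 10 alternatives. The hashtag filter left each level as it was, and leaving out shallow control cells, chosen after seeing the data, cannot change the gated sorts, so neither is counted. Its ratio ranged from 0.113 to 0.185 for Flt3- Ly6d- HSA- over Flt3+ Ly6d- HSA-, where thinning gave 0.185. For Flt3+ HSA+ over Flt3+ Ly6d- HSA- the range was 0.333 to 0.491, with 0.491 without mitotic cells. For Flt3- Ly6d+ over Flt3- Ly6d- HSA- it was 0.375 to 0.626, and for Flt3- Ly6d+ over Flt3+ HSA+ it was 0.119 to 0.222, with 0.119 without mitotic cells. For the control it was 0.522 without control cells with fewer than 6000 UMIs, 0.959 with equal weight for each cell and 1.04 with thinned cells, which turns the direction. Thinning also turned the ratio of Selplg for Flt3- Ly6d- HSA- over Flt3+ Ly6d- HSA-, to 1.01, and removing mitotic cells that of Cxcr4, to 1.003. Where the interval already included 1, thinning turned S1pr1 from 0.480 to 1.12 for Flt3- Ly6d+ over Flt3- Ly6d- HSA- and from 0.878 to 1.14 for Flt3- Ly6d+ over Flt3+ HSA+. Removing mitotic cells turned S1pr1 to 1.20 and Cxcr4 from 0.900 to 1.13 in the latter, and Cxcr4 from 1.003 to 0.945 for Flt3+ HSA+ over Flt3+ Ly6d- HSA-. Totals without mitochondrial and ribosomal protein genes turned Cxcr4 there to 0.992 and Selplg for Flt3- Ly6d+ over Flt3+ HSA+ from 0.991 to 1.02. The causes were not tested.

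The count of members 2-fold apart for Flt3- Ly6d+ over Flt3- Ly6d- HSA-, 1 in the report, was 3 with equal weight for each cell, 3 without the granulocyte class, with or without cells of other types, 3 at 1.5-fold, 2 without the 5% of cells with most UMIs, 0 without mitotic cells and 0 when cells with under 1000 genes, or with 10% or more of their UMIs mitochondrial, were left out. For the control, 0 in the report, it was 1 with thinned cells and 2 at 1.5-fold. The other counts stayed within 1.5 times of those in the report. These counts use no CPM minimum, and no share of all genes was computed beside them under the alternatives.

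The background counts depend on the CPM minimum. Genes higher and lower by 2-fold numbered 110 and 201, 30 and 15, 33 and 95, 206 and 327, and 128 and 104 in the 5 comparisons. They numbered 819 and 632, 418 and 594, 484 and 632, 1243 and 854, and 892 and 893 with no minimum, and 44 and 108, 11 and 5, 13 and 38, 88 and 183, and 59 and 40 at 20 CPM. By Pearson r, 1 of the 3 genes most like Ccr7, S1pr1 and Selplg was the same, and 0 of those like Ccr9 and Cxcr4. Depth limits S1pr1, with 8 to 34 UMIs per sort. No paired analysis was possible because each population was sorted once and the labels give no replicate numbers, so no replicate could be left out either.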

Other observations

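The control cells with Bcl11b and Cd3g UMIs were also split by Il2ra, a split chosen after the values were seen. The 528 cells with an Il2ra UMI held Ccr9 at 23.9 CPM (20.8 to 27.4), Ccr7 at 1.45 CPM and Cxcr4 at 47.2 CPM. The 61 cells without one held Ccr9 at 74.96 CPM (55.3 to 99.4), Cxcr4 at 23.4 CPM (13.1 to 38.6), Ccr7 at 32.8 CPM (20.3 to 50.1) and S1pr1 at 9.37 CPM (3.44 to 20.4). The Ccr7 value rests on 21 UMIs in 8 cells and that of S1pr1 on 6 UMIs in 5 cells. Since the split uses the absence of a UMI, it also sorts by depth: the median was 6921 UMIs in the cells without Il2ra and 17159 UMIs in those with it.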
